A study of Mus musculus with 6 samples.

Results

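Histones are the proteins around which DNA is wound, and the 82 protein-coding mouse genes that encode them were followed in CD8+ T cells, killer lymphocytes of adaptive immunity, with and without palmitate, a saturated long-chain fatty acid. Members were chosen by name: symbols that start with Hist1h, Hist2h, Hist3h or Hist4h, or with H1f, H2af or H3f, and their newer names. No measured value entered that rule, but the family was proposed with fold changes of these same libraries known, so counts over it are a description. The first 4 prefixes gave 67 replication-dependent genes and the others 15 variant genes. Of these 82 genes, 79 stood among the 29370 rows of the deposited gene matrix and 68 (60 replication-dependent, 8 variant) passed the filter on low counts, among 12068 genes tested. The cells were wild-type CD8+ T cells taken from pancreas, spleen and lymph nodes of mice and held in T cell medium, and the groups were 3 control libraries and 3 libraries from cells given 100 µM palmitate, sequenced after 48 h. The number of animals behind a library, and the composition of the control medium, are not given in the sources used here.

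Each nucleosome core holds pairs of the histones H2A, H2B, H3 and H4, and the linker histone H1 binds the DNA between cores. Replication-dependent histone genes lie in clusters, have no introns and are transcribed mainly in S phase, when new DNA must be packaged. Their mRNAs are known to end in a short stem-loop in place of a poly(A) tail; the stem-loop is bound by the protein SLBP, and the mRNAs decay when DNA synthesis stops. Variant genes such as H3f3a, H3f3b and H2afz are expressed through the cell cycle, carry introns as a rule and end in poly(A), and their proteins are placed into chromatin outside replication. Dividing T cells make large amounts of the first kind, and resting cells rely on the second.

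The stem-loop was searched for in the annotated transcripts of each member, because it is the feature by which the 2 classes of mRNA differ. The search took 16-base stretches with a 6-base stem and a 4-base loop of the histone form, downstream of the stop codon. It was found in 45 of the 82 members (54.9%), against 192 of 21999 other protein-coding genes (0.873%). The most frequent form, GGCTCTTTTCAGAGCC, stood in 26 members, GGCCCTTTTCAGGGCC in 7 and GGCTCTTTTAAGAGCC in 6. The windows of 26 bases below, 5′ to 3′ with the stem-loop in capitals, are those of members described with their values further on, and come from the GENCODE M21 transcripts.
Hist1h1e: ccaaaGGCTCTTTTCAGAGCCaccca
Hist1h1t: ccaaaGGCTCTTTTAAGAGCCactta
Hist1h1c: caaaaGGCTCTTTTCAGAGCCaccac
Hist1h3d: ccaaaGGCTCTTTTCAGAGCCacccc
Hist1h4i: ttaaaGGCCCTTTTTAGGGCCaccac
Hist1h2bb: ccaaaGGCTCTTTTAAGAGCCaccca
H2afx: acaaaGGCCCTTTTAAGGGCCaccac
The annotated Hist1h2bb transcript runs on for 23 bases past its stem-loop, while that of Hist1h1e runs on for 1153 bases, of Hist1h3d for 752, of Hist1h4i for 330 and of Hist1h1t for 185. H2afx, a variant known to be made with both kinds of end, was the 1 variant gene in which a stem-loop was found, with 822 annotated bases after it.

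Promoters were read to see what letters the members share ahead of their start sites. RefSeq promoters (table build GRCm38.p6; 250 bases before to 50 after the start) were matched for 76 of the 82 members, with 63 promoters of replication-dependent and 14 of variant genes. The TATA box letters TATAAA, searched like every motif here on both strands, stood in 35 of 63 replication-dependent promoters (55.6%) and 1 of 14 variant promoters (7.14%), against 13.6% of 32851 promoters in the table. CCAAT stood in 85.7%, 71.4% and 37.4% of them. Among replication-dependent genes it stood in all H1, H2A, H2B and H3 promoters but in 3 of 12 H4 promoters (25%). The octamer ATTTGCAT stood in 7 of 18 H2A and 7 of 17 H2B promoters and in none of the 6 H1, 10 H3 and 12 H4 promoters, against 1.74% of all. The letters AAACACA, known as the H1 box, stood in 5 of 6 replication-dependent H1 promoters (83.3%), against 7.18% of all. The 250 bases before the start of 2 linker histone genes, a core histone gene and a variant gene are printed 5′ to 3′ on the gene's strand, with those motifs in capitals (ATTGG is CCAAT on the other strand); none of the motifs overlap there.
Hist1h1e, chr13:23622559-23622808, minus strand: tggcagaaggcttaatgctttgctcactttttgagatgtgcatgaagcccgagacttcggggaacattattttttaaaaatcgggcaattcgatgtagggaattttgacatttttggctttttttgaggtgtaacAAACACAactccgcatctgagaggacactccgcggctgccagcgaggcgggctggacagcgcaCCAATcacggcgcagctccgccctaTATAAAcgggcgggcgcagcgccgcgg
Hist1h1b, chr13:21780626-21780875, minus strand: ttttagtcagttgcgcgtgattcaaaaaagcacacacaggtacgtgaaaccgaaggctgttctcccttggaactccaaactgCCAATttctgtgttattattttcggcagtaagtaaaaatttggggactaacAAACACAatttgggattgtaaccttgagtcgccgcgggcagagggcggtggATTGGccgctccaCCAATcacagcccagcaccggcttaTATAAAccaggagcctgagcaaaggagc
Hist1h2bb, chr13:23746484-23746733, plus strand: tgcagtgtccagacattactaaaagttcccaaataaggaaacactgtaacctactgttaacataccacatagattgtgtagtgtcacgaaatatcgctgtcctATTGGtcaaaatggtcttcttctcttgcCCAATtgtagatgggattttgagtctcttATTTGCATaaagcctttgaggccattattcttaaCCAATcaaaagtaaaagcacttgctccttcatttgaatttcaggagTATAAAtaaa
H2afv, chr11:6444444-6444693, minus strand: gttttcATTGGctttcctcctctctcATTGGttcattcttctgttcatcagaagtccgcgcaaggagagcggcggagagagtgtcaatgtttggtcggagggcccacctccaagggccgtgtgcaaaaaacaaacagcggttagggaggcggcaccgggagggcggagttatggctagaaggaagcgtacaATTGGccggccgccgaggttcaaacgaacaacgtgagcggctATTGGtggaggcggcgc
Both linker histone promoters hold an H1 box upstream of a CCAAT and a TATA box, Hist1h2bb holds an octamer in place of the H1 box, and H2afv holds 4 CCAAT matches and none of the other motifs. Coordinates are those of the table's build; the submitters name GRCm39.

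The libraries held 16724588 to 29362276 counts in the gene matrix. The T cell label stood up to its markers: Cd8a was at 249.9 to 545.4 CPM (counts-per-million on TMM-scaled library sizes) and Cd8b1 at 204.7 to 308.1, while Cd4 stayed under 0.6. Of 10 T cell markers 7 were higher with palmitate (70%, against 11.1% of all genes) and 0 lower. Their sums were 1989 to 2378 CPM in control and 2661 to 2934 in palmitate libraries. Cd8a was among the higher ones (0.71 ± 0.14, adjusted p = 0.0144). Markers of other cells differed with palmitate in some lists. B and plasma cell markers summed to 183.6 to 248.9 CPM in control and 280.6 to 312 in palmitate libraries. Of 11 tested, 2 were higher (18.2%) and 0 lower, and 6 were higher with the replicate block. Erythroid markers summed to 1.69 to 4.02 and 5.85 to 11.5 CPM (1 of 3 higher, and 2 with the block). Over all genes 11.1% were higher, and 16.5% with the block. Myeloid markers summed to 3.81 to 6.33 and 5.91 to 6.25 CPM, with S100a8 and S100a9 at 0, and pancreas and stroma markers to 36.0 to 42.2 and 47.4 to 64.4, with Ins1, Ins2 and Prss1 at 0 and the endothelial gene Pecam1 higher (0.48, adjusted p = 0.0339). Markers of CD4 T cells summed to 1.96 to 2.81 and 3.70 to 6.72 CPM (1 of 2 higher), and NK cell markers to 171.3 to 188.9 and 147.7 to 164.5 (0 of 5 called; 1 lower before adjustment at p under 0.05 and 1 lower with the block). Single genes made up most of the sums of the B and plasma cell, NK cell, and pancreas and stroma lists. In control 1 and palmitate 1, Ighm was at 227.0 and 247.2 CPM, where its list summed to 248.9 and 280.6. Eomes was at 184.7 and 161.2 CPM, where the NK cell list summed to 188.9 and 164.5. Pecam1 was at 41.8 and 63.7 CPM, where its list summed to 42.2 and 64.4. The part of these cells in the histone values was not tested. Libraries numbered 2 stood apart from the rest in the replication-dependent genes, as described below. Counts of called genes without both are given beside those results and the pathway lists. Of the marker lists, T cell calls fell from 7 to 2 without both and to 0 without control 3. B and plasma cell calls fell from 2 to 1 in each of these fits. Without both, 0 were called in the CD4 T cell, erythroid, and pancreas and stroma lists. Calls over all genes were 801 without both and 690 without control 3, in place of 2759. A lower level in bulk RNA can come from fewer cells that express a gene or from less of its RNA per cell, and these cannot be told apart here.

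Palmitate libraries held less RNA of 3 linker histone genes (Hist1h1e, Hist1h1b and Hist1h1t) and of 2 core histone genes (Hist1h3d and Hist1h4i), and more of the variants H2afy and H2afv. No replication-dependent gene was higher and no variant was lower in edgeR's quasi-likelihood fit without the replicate block. Its p-values were adjusted by Benjamini-Hochberg over all 12068 genes at 0.05. Over all genes that test called 22.9%, with 1416 lower (11.7%) and 1343 higher (11.1%). Among the 60 replication-dependent genes tested, 5 were called (8.33%), all lower, which is below that background. Before adjustment, 9 lay lower and 0 higher at p under 0.05, against 2308 lower and 2249 higher of all 12068 genes. DESeq2 gave 6 lower and 0 higher, against 1842 lower and 1385 higher of all 11680 genes it tested. Limma-voom gave 5 lower and 0 higher, against 1358 lower and 1341 higher of all 12068. Among the 8 variants tested 2 were called (25%), near the background; before adjustment, 2 lay higher and 1 lower at p under 0.05, as with DESeq2. Libraries of the groups did not overlap in 9 replication-dependent genes (15%) and 3 variants (37.5%), against 42.9% of all genes. The median log2 fold change (palmitate over control) was −0.02 in replication-dependent genes, −0.01 in variants and 0.02 in all genes. Replicate libraries disagreed more on the first class: the median standard error (SE) of the log2 fold change was 0.24 in replication-dependent genes, 0.11 in variants and 0.13 in all genes. A median 95% interval therefore reached 0.57 to either side in replication-dependent genes and 0.24 in variants, so that most replication-dependent members could have moved by either sign without passing.

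**Figure D1:**
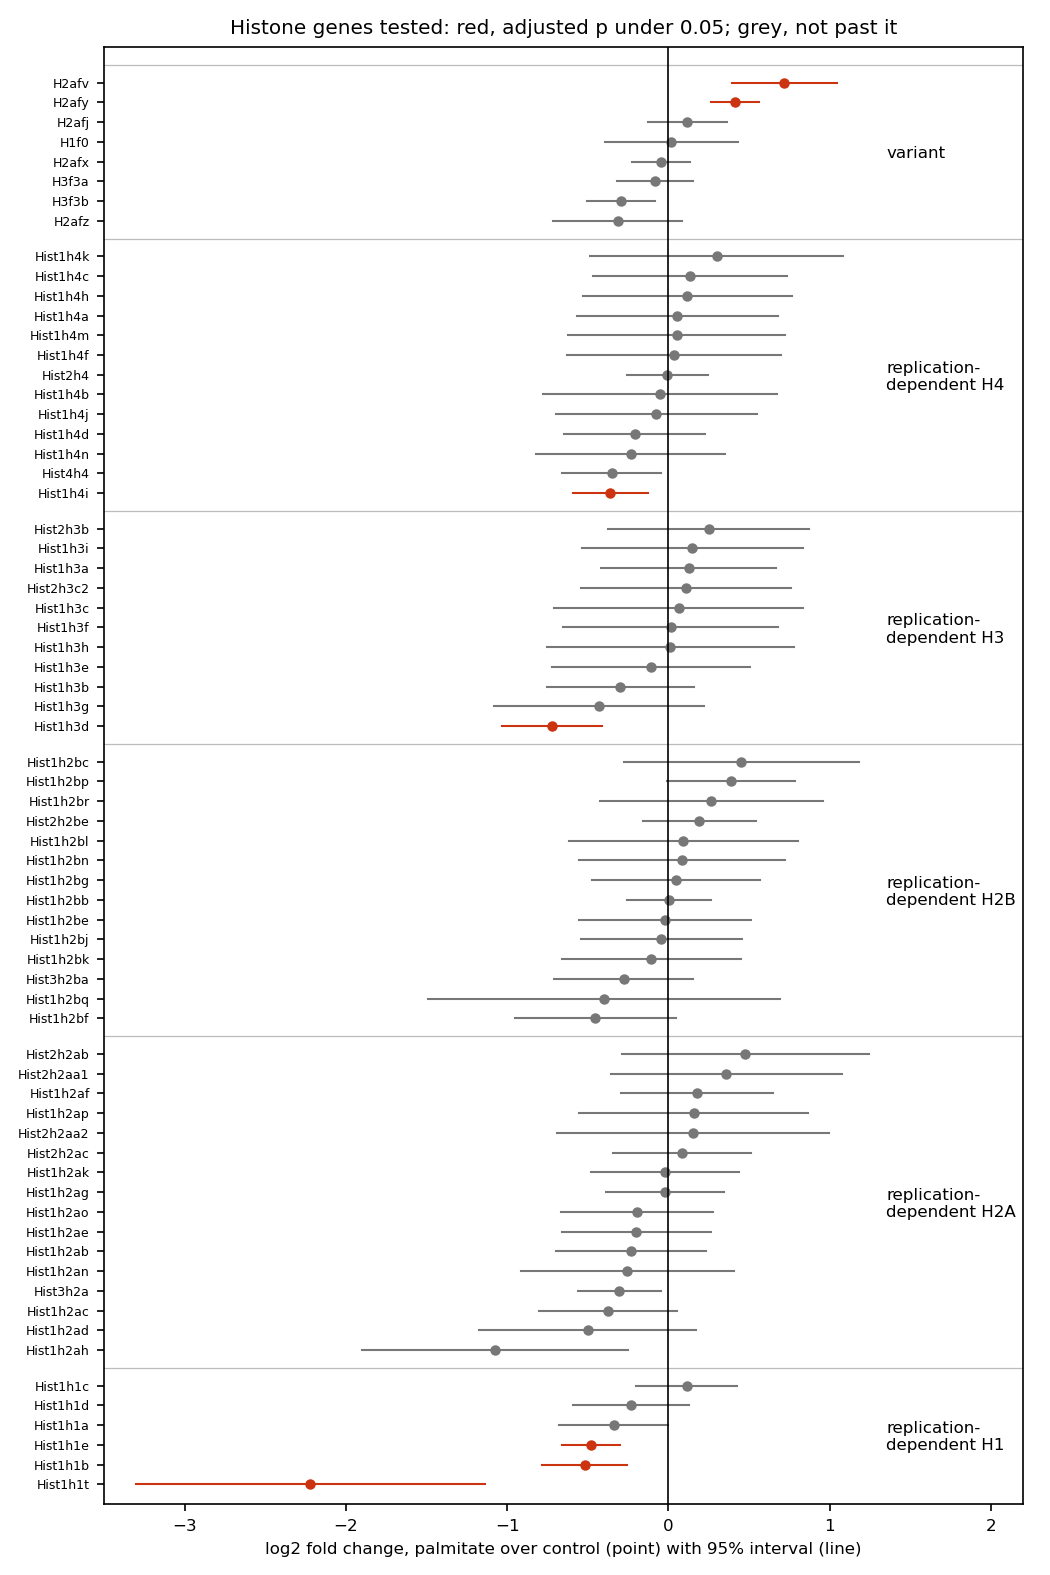
Log2 fold changes, palmitate over control, of the 68 histone genes tested, in rows by class and histone type; points are estimates, lines 95% intervals, and red marks an adjusted p under 0.05. The 5 red replication-dependent genes lie left of 0 (Hist1h1t, at −2.22, farthest) and the 2 red variants right of it, and intervals of most core histone genes span 0.

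With the replicate number as a block, which the pairing of the libraries allows, 15 members were called: 10 replication-dependent genes lower and 2 higher, and 1 variant lower and 2 higher. All 7 members called without the block were among them. Over all genes that fit called 33.1% (16.6% lower, 16.5% higher). The added 8 were Hist1h1a, Hist1h1d, Hist1h3b, Hist3h2a, Hist4h4 and H3f3b, which were lower (log2 fold changes −0.35, −0.25, −0.31, −0.31, −0.36 and −0.29), and Hist1h2bc and Hist1h2bp, which were higher (0.43 and 0.40). These are named for their call in that fit and not by the rule for named genes.

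Among the replication-dependent types, linker histones had the largest share of called genes. Their standard errors were also smaller (median SE 0.14 against 0.26 in core genes), and they share few of their sequence words with other genes, as described further on. The part of this in the contrast with core genes was not tested. Of the 6 linker histone genes tested, 3 were lower without the block (50%, against 11.7% of all genes). With the block 5 were lower, against 16.6% of all genes. None was higher (also 0 before adjustment at p under 0.05, and with DESeq2 and limma-voom), and the median log2 fold change was −0.41. Hist1h1e (newer name H1f4), encoding a main somatic linker histone, was at 487.2, 439.9 and 463.4 CPM in control libraries 1 to 3 and at 357.8, 316.4 and 321.0 CPM in palmitate libraries 1 to 3. All palmitate libraries lay below all control libraries. Its level was 463.5 ± 23.6 against 331.8 ± 22.7 CPM (mean ± SD, n = 3 each), its log2 value fell by 0.48 ± 0.08 (SE; adjusted p = 0.00691), and it was called in each of the 6 fits that left out 1 library.

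Hist1h1b (H1f5) was the linker histone gene with the highest level per annotated length. It was at 528.7, 479.9 and 545.0 CPM in control and 410.1, 302.4 and 371.0 CPM in palmitate libraries. The groups did not overlap, and palmitate 2 was the lowest. In log2 terms it fell by 0.52 ± 0.12 (adjusted p = 0.0179). The call was lost without control 3 (adjusted p = 0.0788) and without palmitate 3 (adjusted p = 0.0535).

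Hist1h1t (H1f6), known as a linker histone of the testis, was read at a trace level, with 72 counts over the 3 control and 12 over the 3 palmitate libraries. It was at 0.894, 0.521 and 1.16 CPM in control and 0.202, 0.118 and 0.239 CPM in palmitate libraries. Every palmitate library was below every control library. In log2 terms it fell by 2.22 ± 0.47 (adjusted p = 0.0155), and the call was lost without control 3 (adjusted p = 0.0728) and without palmitate 2 (adjusted p = 0.0539).

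The other linker histone genes did not pass without the block. Hist1h1a (H1f1) was at 459.4, 356.3 and 413.2 CPM in control and 376.7, 262.0 and 332.5 CPM in palmitate libraries, so that palmitate 1 lay inside the control range. Its log2 fold change was −0.34 ± 0.15 (adjusted p = 0.131; 0.00688 with the block). Hist1h1d (H1f3) had −0.23 ± 0.16 (adjusted p = 0.309; 0.048 with the block). Hist1h1c (H1f2) was at 271.7, 208.7 and 240.9 CPM in control and 285.9, 214.5 and 280.3 CPM in palmitate libraries. The groups overlapped, with a difference of 0.11 ± 0.14 in log2 (adjusted p = 0.573), and the 95% interval ran from −0.20 to 0.43.

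**Figure D2:**
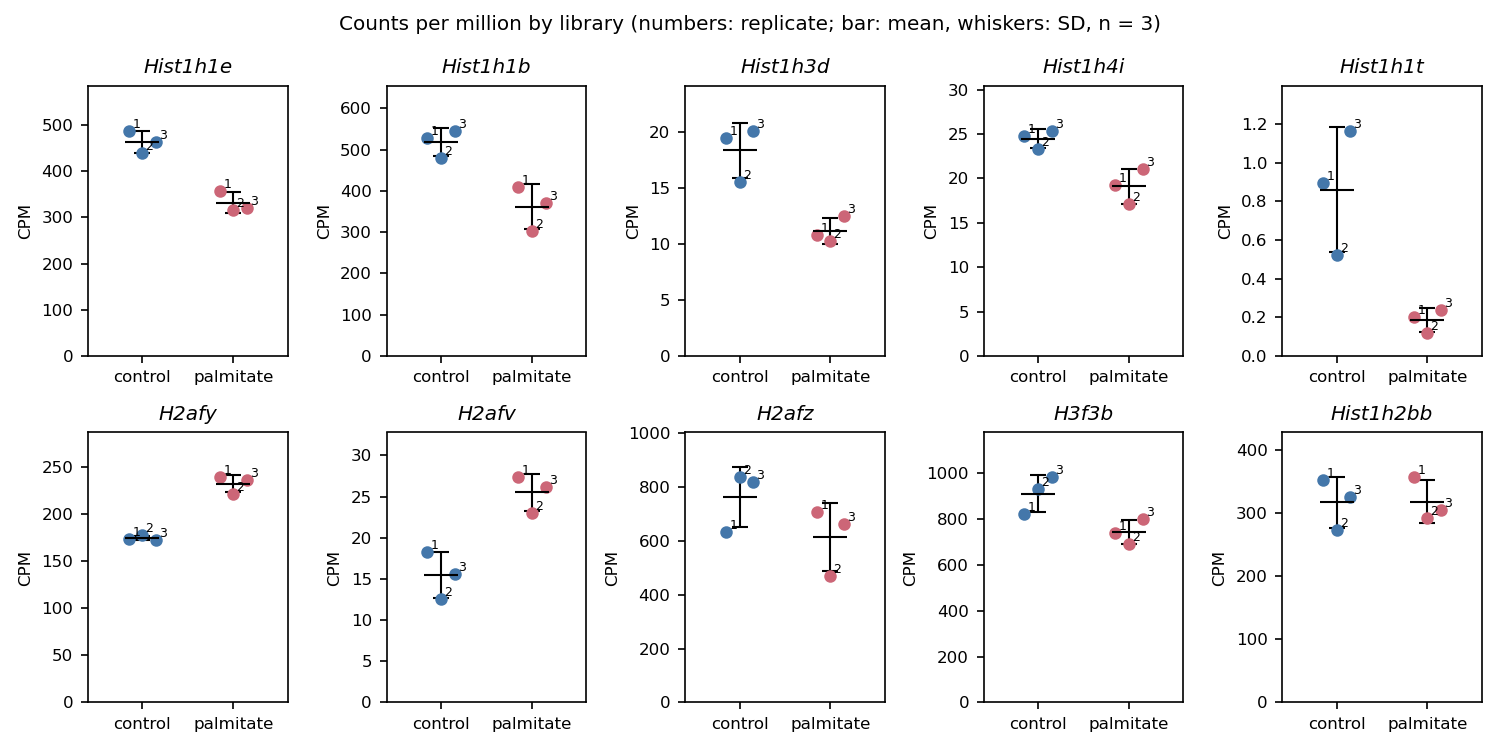
CPM in each library for 10 histone genes, with control libraries in blue and palmitate libraries in red, replicate numbers beside the points, bars at the mean and whiskers at 1 SD (n = 3). Hist1h1e, Hist1h1b, Hist1h3d, Hist1h4i and Hist1h1t lie lower with palmitate and H2afy and H2afv higher, with no overlap, while H2afz and Hist1h2bb overlap.

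Composition within the linker histones was compared on TPM (transcripts-per-million, which is per length) from the deposited transcript tables. The annotated lengths are uneven: 741 bases in Hist1h1a, 743 in Hist1h1b, 1560 in Hist1h1c, 7425 in Hist1h1d and 1930 in Hist1h1e. The size of a gene's share depends on that length. By counts, Hist1h1d had a control mean of 308.0 CPM, where the linker histone sum had 1940 CPM. Hist1h1b made up 41.4%, 44.7% and 44.4% of replication-dependent H1 TPM in control and 39.5%, 39.0% and 39.5% in palmitate libraries. Hist1h1c made up 9.26%, 8.41% and 8.71% in control and 11.9%, 12.2% and 12.9% in palmitate libraries, and Hist1h1d 2.27% to 2.44% and 2.61% to 2.72%. The shares of Hist1h1c and Hist1h1d were higher in every palmitate library than in every control library, and that of Hist1h1b lower. Each of the 3 exact two-sided permutation p was 0.1, the smallest that 3 libraries against 3 allow, and 0.343 after Benjamini-Hochberg adjustment over the 24 sums and shares tested. Hist1h1a took 32.2% to 35.0% in control and 32.9% to 35.2% in palmitate libraries.

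Core histones were called in 2 of 54 genes tested (3.7%, against 22.9% of all genes), both lower, with a median log2 fold change of −0.001. Hist1h3d (H3c4), a replication-dependent H3 gene, was at 19.5, 15.6 and 20.1 CPM in control and 10.8, 10.3 and 12.5 CPM in palmitate libraries. The groups did not overlap. In log2 terms it fell by 0.72 ± 0.14 (adjusted p = 0.0105), and the call was lost without control 3 (adjusted p = 0.058). Hist1h4i (H4c9), an H4 gene, was at 24.8, 23.3 and 25.3 CPM in control and 19.2, 17.1 and 21 CPM in palmitate libraries, again with no overlap. It fell by 0.36 ± 0.10 (adjusted p = 0.0373). That call was lost with upper-quartile scaling (−0.30, adjusted p = 0.0675) and in 5 of the 6 fits that left out 1 library.

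The remaining 52 core genes did not pass without the block, and their log2 fold changes had both signs in every type. Of 16 H2A genes 0 were called, with a median of −0.11 and a range of −1.08 to 0.48. Of 14 H2B genes 0 were called, with a median of 0.03 (−0.45 to 0.45). Before adjustment 2 H2A genes and 0 H2B genes lay lower at p under 0.05, and DESeq2 called 1 H2A gene, Hist3h2a, lower. The medians were 0.02 over 11 H3 genes and −0.01 over 13 H4 genes. Hist1h2bb (H2bc3), the core gene with the highest CPM, was at 352.4, 273.5 and 326.0 CPM in control and 357.0, 293.1 and 305.1 CPM in palmitate libraries. The groups overlapped, the log2 fold change was 0.005 ± 0.114 and the 95% interval ran from −0.26 to 0.27 (adjusted p = 0.979). The lowest fold change, that of Hist1h2ah, rested on 57 counts in control and 22 in palmitate libraries and did not pass (adjusted p = 0.0637).

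The member with the highest TPM, Hist2h2bb, an H2B gene, was absent from the gene matrix, as were Hist1h2bh and Hist1h2bm. In the transcript tables Hist2h2bb was at 3434, 2896 and 3071 TPM in control and 3075, 2017 and 2617 TPM in palmitate libraries. Palmitate 1 lay inside the control range, and the log2 fold change in the transcript sums was −0.33 (adjusted p = 0.071). Its annotated transcript has 381 bases, holds coding sequence alone and shows no stem-loop. Hist1h2bm and Hist1h2bh had −0.09 and −0.28 in the same sums (adjusted p = 0.813 and 0.358). Hist2h3c1, an H3 gene, was left untested because the matrix held reads of 1 of its 2 transcripts and so listed 0 counts in 5 libraries; its summed TPM was 6.5 ± 1.3 in control and 6.1 ± 1.4 in palmitate libraries.

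Both variants that passed the test encode H2A variants and were higher with palmitate. H2afy (Macroh2a1), encoding macroH2A, a histone H2A with a large additional domain that is found in silent chromatin, was at 173.0, 177.3 and 172.7 CPM in control and 238.5, 221.3 and 235.9 CPM in palmitate libraries. The control libraries lay close together and all palmitate libraries lay above them. In log2 terms it rose by 0.41 ± 0.06 (adjusted p = 0.00617) and was called in each of the 6 fits that left out 1 library. By transcript, ENSMUST00000016081 was at 140.3, 143.1 and 139.6 RPM (reads-per-million) in control and 195.2, 180.2 and 186.6 in palmitate libraries, and the rarer ENSMUST00000045788 at 3.13, 2.16 and 2.09 and at 8.58, 4.64 and 6.92. Both were higher in every palmitate library.

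H2A.Z, a variant found at promoters, is encoded by a gene pair, H2afz and H2afv (H2az2). H2afv was at 18.2, 12.6 and 15.5 CPM in control and 27.3, 23.0 and 26.2 CPM in palmitate libraries. The groups did not overlap. In log2 terms it rose by 0.72 ± 0.14 (adjusted p = 0.0124), and the call was lost without control 3 (adjusted p = 0.0588). H2afz, the more abundant of the pair, was at 634.2, 835.7 and 818.5 CPM in control and 707.8, 470.1 and 661.5 CPM in palmitate libraries. Palmitate 1 and 3 lay above control 1, and the log2 fold change was −0.32 ± 0.17 (adjusted p = 0.221). On TPM, H2afv made up 4.86%, 2.61% and 3.54% of the pair in control and 6.82%, 7.85% and 7.14% in palmitate libraries, with no overlap (exact two-sided permutation p = 0.1, the smallest possible here; 0.343 adjusted over the 24).

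The H3.3 genes H3f3a and H3f3b encode the same protein, the H3 that is deposited outside replication. H3f3b was at 820.8, 929.0 and 980.1 CPM in control and 740.3, 689.5 and 797.8 CPM in palmitate libraries. Palmitate 3, the highest of its group, lay below control 1, the lowest of its own. The log2 fold change was −0.29 ± 0.09 and missed the threshold (adjusted p = 0.0527). It passed with the block (adjusted p = 0.0212), with DESeq2 (0.0106), with no filter on low counts, in both transcript sums and without control 1. H3f3a was at 429.0, 543.4 and 479.5 CPM in control and 490.2, 418.9 and 463.4 CPM in palmitate libraries, which overlapped, and its log2 fold change was −0.08 ± 0.10 (adjusted p = 0.6).

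Other variants differed by less than the spread between replicates. H2afx, the H2A that is phosphorylated at DNA breaks, was at 30.7, 32.8 and 33.2 CPM in control and 31.1, 30.2 and 32.4 CPM in palmitate libraries, for which the log2 fold change was −0.05 ± 0.08 (adjusted p = 0.704), with a 95% interval of −0.23 to 0.14. H1f0, a linker histone of cells that have left the cycle, had 0.02 ± 0.18 (adjusted p = 0.952), and H2afj, an H2A variant, 0.12 ± 0.11 (adjusted p = 0.446). H1fx was left untested at 2 counts in all. The other untested variants were H2afy2 (2 counts), the oocyte linker histone gene H1foo (31 counts in control, 9 in palmitate libraries), and H1fnt, H2afb1, H2afb2 and H2afb3, which were at 0. Among replication-dependent genes, Hist1h2aa was at 0, Hist1h2ai at 8 counts and Hist1h2ba at 16. The order of the variants by control TPM was H2afz (1133 ± 172), H3f3a (807 ± 7), H3f3b (719 ± 37), H2afy (122 ± 2.3), H2afv (41.9 ± 7.1), H2afx (37.2 ± 2.8), H2afj (13.95 ± 1.4) and H1f0 (12.3 ± 2.6); H2afv and H2afx did not differ beyond their spread, nor did H2afj and H1f0.

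The spread among replication-dependent genes had a common shape. Palmitate 2 held the lowest value of the 6 libraries in 50 of 60 of them (83.3%), against 14.4% of all genes tested, and the lowest of its group in 58 of 60 (96.7%; 32.8% of all genes). Control 2 was the lowest control library in 50 of 60 (83.3%; 37% of all genes). The median deviation of the 54 core genes from their group mean on log2(CPM + 0.5) was 0.13, −0.20 and 0.06 in control libraries 1 to 3 and 0.23, −0.50 and 0.24 in palmitate libraries 1 to 3. The 6 linker histone genes went the same way with medians of −0.18 in control 2 and −0.26 in palmitate 2.

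In other sets the medians deviated less. The 50 genes of the DNA replication list leaned the same way, with palmitate 2 the lowest of the 6 libraries in 58%, the lowest of its group in 66% and control 2 the lowest control in 58%, but with medians of −0.06 in each. Variants had medians of 0.03 in control 2 and −0.09 in palmitate 2, where palmitate 2 was the lowest of 6 in 4 of 8 and the lowest of its group in 6 of 8. For 3879 other genes of like effective length the medians were −0.03 and 0.02. These differences between sets were not tested. The effective length that the deposited tables give for the 508-base Hist1h2bb transcript, which depends on the fragment lengths of a library, was 345.5, 328.8 and 318.5 bases in control and 329.0, 359.4 and 321.2 bases in palmitate libraries, so that palmitate 2 had the longest. Its part in the replication-dependent values was not tested. Without both libraries numbered 2, the test called 4 replication-dependent genes and 2 variants, while the calls over all genes were 801 in place of 2759. Hist1h4i was the member whose call was lost in that fit (−0.32).

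**Figure D3:**
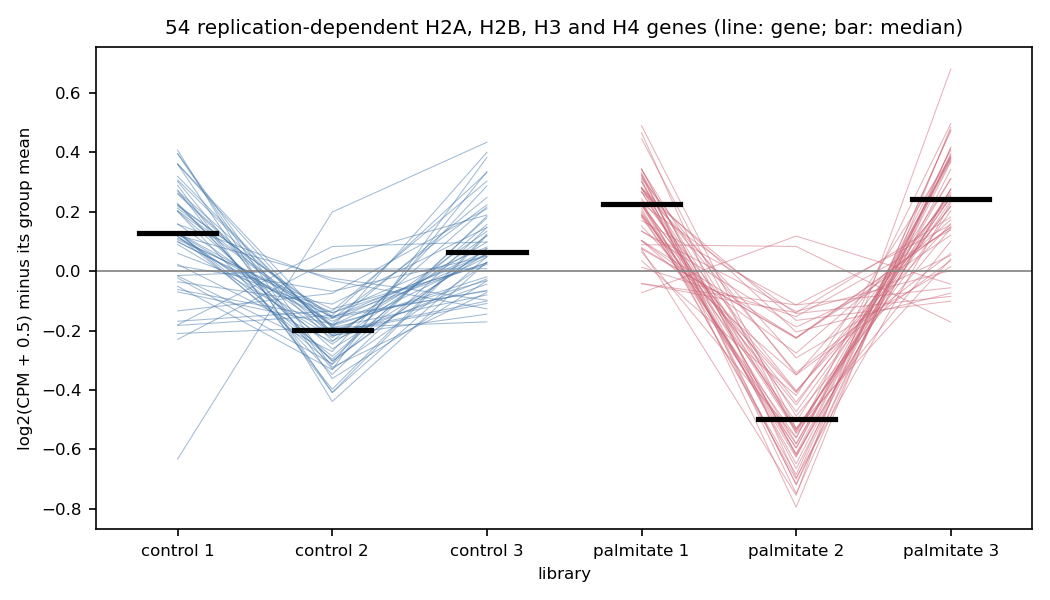
Deviation of 54 replication-dependent core histone genes from their group mean, on log2(CPM + 0.5), by library; each thin line is a gene and each bar the median. Control 2 (median −0.20) is the lowest control library in 44 of the 54 genes, and palmitate 2 (median −0.50) is the lowest of its group in 52.

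Summed over genes, replication-dependent histone RNA, linker and core together, overlapped between the groups and was lower with palmitate within each replicate number. It was 12240, 9976 and 11540 TPM in control and 12080, 7281 and 10790 TPM in palmitate libraries (exact two-sided permutation p = 0.6). Within replicate numbers palmitate was lower in 3 of 3 pairs (exact sign-flip permutation p = 0.25, the smallest that 3 pairs allow), as it was on the matrix counts (4050, 3256 and 3810 against 3714, 2558 and 3546 CPM). On TPM, palmitate 2 was the lowest and palmitate 1 was second to control 1 alone. The core genes alone were lower with palmitate in 2 of 3 pairs. Without Hist2h2bb they were lower in 1 of 3 (6230, 4833 and 5986 TPM in control, 6765, 3749 and 6283 TPM in palmitate libraries). Variants summed to 2662, 3045 and 2956 TPM in control and 2883, 2339 and 2679 TPM in palmitate libraries (p = 0.3, exact permutation). Replication-dependent genes thus made up 79.5% ± 2.8 of histone TPM in control and 78.9% ± 2.8 in palmitate libraries (SD, n = 3 each).

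By type, the linker histone sum was the one replication-dependent sum whose groups did not overlap. It was 2577, 2247 and 2487 TPM in control and 2243, 1514 and 1893 TPM in palmitate libraries, with palmitate 1 just under control 2 (exact permutation p = 0.1; 0.343 adjusted over the 24). H2B, the largest sum, was 5860 ± 630 and 5313 ± 1219 TPM, H4 1318 ± 159 and 1318 ± 465, H3 983 ± 166 and 918 ± 302, and H2A 655 ± 93 and 621 ± 177. Each of these 4 sums overlapped between the groups. Palmitate was the lower of the pair in 3 of 3 replicate numbers for H2B, whose sum includes Hist2h2bb, 2 of 3 for H2A and H3, and 1 of 3 for H4. The H3.3 genes summed to 1488, 1546 and 1546 TPM in control and 1485, 1365 and 1432 TPM in palmitate libraries, again with no overlap (exact permutation p = 0.1; 0.343 adjusted over the 24), although control 1 and palmitate 1 lay close together; their share of all H3 TPM was 61.0% ± 4.5 and 61.6% ± 7.7.

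**Figure D4:**
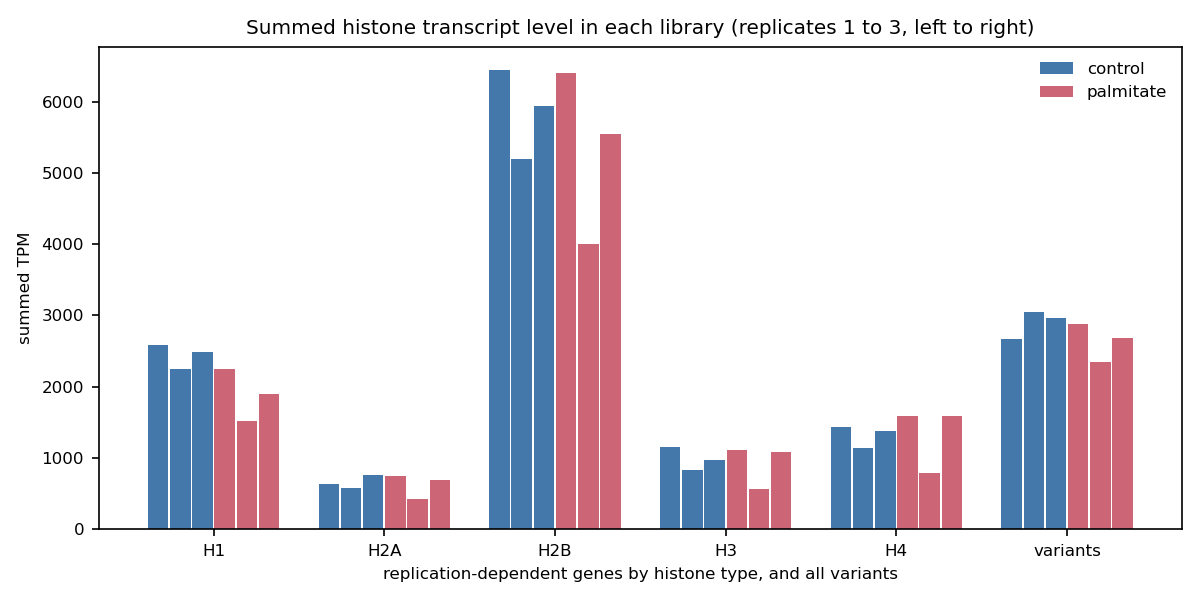
Summed TPM of replication-dependent histone genes by type, and of variants, in each library (blue, control 1 to 3; red, palmitate 1 to 3, left to right; the axis starts at 0). The H1 bars are lower in the palmitate libraries (1514 to 2243) than in control (2247 to 2577), and palmitate 2 has the lowest bar in every set.

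Where the annotated transcript ends was set beside these changes, because members differ in how far their annotation runs past the stem-loop. Of the replication-dependent genes tested, 19 have an annotated transcript that ends within 60 bases of the stem-loop; 0 of them were called (0 also at an unadjusted p under 0.05), with a median log2 fold change of −0.02. With the block, Hist1h3b was lower among them. In 21 genes the annotated transcript runs further, and 4 were called, all lower (19%, against 11.7% of all genes), with a median of −0.20. These were Hist1h1e, Hist1h1t, Hist1h3d and Hist1h4i, and with the block 7 of the 21 were lower, against 16.6% of all genes. Hist1h1b, the fifth called, has no annotated sequence after its stop codon, and 10 other tested members have at most 2 bases there. No stem-loop was found in 9 further genes, of which 0 were called (1 lower at an unadjusted p under 0.05; 1 lower and 2 higher with the block). Transcripts that end within 60 bases took 20.8%, 19.7% and 21.3% of replication-dependent reads in control and 23.3%, 22.3% and 23.3% in palmitate libraries, with no overlap. The tables cannot tell on which side of the stem-loop a read lay.

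Reads of near-identical genes limit what can be said of single members. Salmon divides a read that fits several transcripts among them, and the share of a gene's 31-base words that occur in other genes measures how far this can act. In 40 tested replication-dependent genes at least 40% of these words were shared; 0 were called (1 lower at an unadjusted p under 0.05; 1 lower and 1 higher with the block), with a median log2 fold change of 0.03 and a median SE of 0.27. In the 20 genes with less sharing 5 were called (25%), all lower, with a median of −0.25. Over all genes 22.9% were called and 11.7% were lower. With the block 9 of the 20 were lower and 1 higher, against 16.6% and 16.5% of all genes. The shares were 34.7% in Hist1h1e, 3.9% in Hist1h1b, 0% in Hist1h1t, 27.6% in Hist1h3d and 35.2% in Hist1h4i, and 0% in H2afy and 0.7% in H2afv. The linker histone genes all lie in the group with less sharing, with shares of 0% to 34.7%. The sharing, the histone type and the lengths of annotated ends differ together between these genes, and their parts were not separated.

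Genes that make, cut and carry histone mRNA and protein were taken from lists. Of 24 tested genes of histone mRNA processing, 7 were lower (29.2%, against 11.7% of all genes). Higher was 1, the exonuclease gene Xrn1 (0.44), and the median log2 fold change of the list was −0.17. With 1 library left out, the lower count was 1 without control 3 and 3 without palmitate 2 or palmitate 3. It was 4 without control 2 or palmitate 1 and 9 without control 1. Without both libraries numbered 2 it was 0, with 2 higher. Calls over all genes were 690 without control 3, 3433 without control 1 and 801 without both libraries numbered 2, in place of 2759. Slbp, whose protein binds the stem-loops printed above, was at 353.4, 380.1 and 402.1 CPM in control and 303.6, 270.2 and 282.1 CPM in palmitate libraries. The groups did not overlap. It fell by 0.41 ± 0.08 (adjusted p = 0.0119), a call lost without control 3 (adjusted p = 0.0616). Ncbp1 of the cap-binding complex fell by 0.36, and Cpsf2 and Cstf2, subunits of the cleavage machinery, by 0.32 and 0.33. Npat, the coactivator of histone gene transcription, did not pass (−0.17 ± 0.09, adjusted p = 0.185).

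Of 32 genes that bind, carry or modify free histones, 7 were lower (21.9%, against 11.7% of all genes). At the same threshold 0 were higher (1 higher at an unadjusted p under 0.05), and the median was −0.08. The block gave 12 lower and 1 higher, against 16.6% lower and 16.5% higher of all genes. DESeq2 gave 15 lower and 0 higher, against 1842 lower and 1385 higher of all 11680 genes it tested. Without control 3, and without both libraries numbered 2, 0 were lower. Without palmitate 1, 2 or 3 it was 4 each, and with upper-quartile scaling 4 were lower and 1 higher. Calls over all genes fell from 2759 to 690 without control 3 and to 801 without both libraries numbered 2. Nasp, which holds soluble H3 and H4, fell by 0.37 ± 0.07, Hat1, which acetylates new H4, by 0.40 ± 0.07, Supt16 of the FACT complex by 0.38 ± 0.08 and Set, a histone-binding protein gene, by 0.46 ± 0.09 (adjusted p = 0.00864 to 0.0133), and each of these calls was lost without control 3. Of 50 DNA replication genes, 26 were lower (52%, against 11.7% of all genes) and 0 higher (0 also at an unadjusted p under 0.05), with a median of −0.23. The lower count was 7 without control 3 and 7 without both libraries numbered 2, 12 without palmitate 3, 15 without palmitate 2 and 16 without palmitate 1. Among them Ccne1, encoding cyclin E1, fell by 0.67 ± 0.07 and the clamp loader gene Rfc3 by 0.69 ± 0.09. The core histone genes, with 3.7% lower and a median of −0.001, are to be read beside these values and their wider errors (median SE 0.26 against 0.08 in the replication list); the difference between the lists was not tested.

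**Figure D5:**
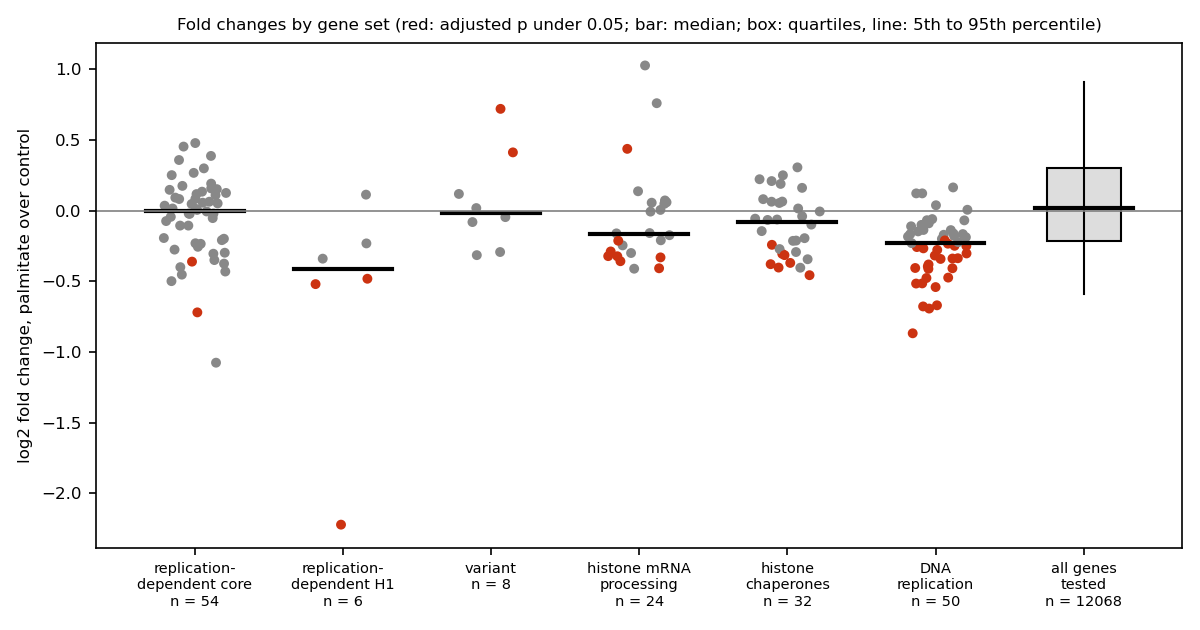
Log2 fold changes by gene set, palmitate over control; dots are genes (red, adjusted p under 0.05), bars medians, and the box shows the quartiles of all 12068 genes tested with the 5th to 95th percentile as a line. Medians are −0.001 for replication-dependent core genes, −0.41 for linker histone genes, −0.01 for variants and −0.23 for DNA replication genes.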

How the data were processed

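Mouse CD8+ T cell RNA was sequenced in 3 control and 3 palmitate libraries; per the labels' protocols, RNeasy kits gave the RNA and a SMARTER mRNA-Seq kit the libraries. Deposited files are a matrix of whole-number counts per gene and a Salmon table per library, in which the authors give expected counts, TPM and effective lengths of transcripts. Salmon 1.10.0, GRCm39, DESeq 1.42.0 and Trim Galore 0.6.10 are named, per the submitters' processing notes; the role of each, the strand setting and the table that linked transcripts to genes are not stated in the sources used here. All matrix columns were mapped to samples (0 left over), and 0 rows named no gene.

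Symbols and transcripts came from GENCODE M21 (29134 of 29370 matrix rows; 114808 of 116224 transcripts, with 99.44% to 99.49% of reads) and promoters from RefSeq. The 82 members are protein-coding genes; 9 other symbols with these prefixes were left out. The test on matrix counts used edgeR 4.0.16 in R 4.3.3 (TMM, its filter on low counts, robust quasi-likelihood fit, group as the single term, two-sided, Benjamini-Hochberg at 0.05 over 12068 genes) after a check on simulated counts. Sums of TPM were compared by an exact permutation test that left the pairing out, and the sum of replication-dependent genes also by sign flips within pairs. Alternatives were upper-quartile and RLE scaling, no filter, DESeq2 1.42.0, limma-voom 3.58.1, at least 5 CPM on average, the replicate block, transcript sums of the rounded expected counts with and without length offsets, other distances for transcript ends, each library left out and, chosen after seeing the data, both libraries numbered 2 left out. The members and lists were chosen with earlier results of these data known. Named are called members, the 4 highest of each class by CPM, H2afx, H2afz, H2afv, H3f3a, H3f3b, H1f0, H1fx, Slbp, Npat and for each list up to 4 genes by smallest adjusted p; others were named after their values were seen.

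Both groups carry replicate numbers in their labels. Across genes, deviations from group means had correlations of 0.226, 0.13 and 0.152 in same-numbered pairs and of −0.185 to 0.061 in other pairs, which by the rule of over 0.1 in all pairs counts as pairing; where the pairing comes from is not stated in the labels. The labels name no separate animals or cultures, and p-values then reflect spread between libraries that may be technical. Whether the kit primes on poly(A), which would touch replication-dependent mRNAs, is not stated.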

Additional observations from a re-analysis of the deposited data

How the results depend on the processing

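Of 479 values of single genes recomputed under an alternative, 424 kept their direction and side of the threshold, 31 kept their direction and lost the call, and 9 kept it and gained one. The other 15, in 4 genes not called in any of these fits, changed sign. Hist1h2bb (0.005) became −0.002 with RLE, −0.005 with no filter, −0.011 with DESeq2 and with transcript sums, −0.04 with length offsets, −0.095 without control 2, −0.091 without palmitate 1 and −0.038 without both libraries numbered 2. H1f0 (0.018) became −0.014 with length offsets, −0.155 without control 1, −0.104 without palmitate 2 and −0.047 without both libraries numbered 2. H3f3a (−0.081) became 0.006 without control 2 and 0.067 without both libraries numbered 2, and H2afx (−0.046) became 0.013 with upper-quartile scaling. With 1 library left out, values ranged from −0.095 to 0.083 in Hist1h2bb, −0.155 to 0.147 in H1f0 and −0.165 to 0.006 in H3f3a. The 5 replication-dependent calls became 12 with the replicate block (10 lower, 2 higher) and ranged from 1 (without control 3) to 4 when 1 library was left out, with 3 without palmitate 2. The 2 variant calls ranged from 1 (without control 3) to 3 (without control 1, where 1 was lower and otherwise 0); 1 variant, H3f3b, was also lower with no filter, DESeq2, the block and both transcript sums. Over all genes the 2759 calls ranged from 690 (without control 3) to 3433 (without control 1), with 1353, 1443, 1651 and 1304 without control 2, palmitate 1, palmitate 2 and palmitate 3, and were 801 without both libraries numbered 2. With upper-quartile scaling 1651 genes were higher and 1052 lower, and the median of replication-dependent genes was 0.04 in place of −0.02. Beyond the values in the report, the block gave 9 lower genes of histone mRNA processing in place of 7 and 28 lower DNA replication genes in place of 26, and it changed no other call of a histone gene. Reads on transcripts ending within 30 bases of the stem-loop were 12.7% in control and 14.2% in palmitate libraries, and within 120 bases 21.3% and 23.8%. The median 95% interval reached 0.57 to either side in replication-dependent genes, so that smaller changes could be missed in many of them. It reached 0.325 in linker histone genes and 0.607 in core genes. Called genes with changes below 0.57 in size were Hist1h1e (−0.48), Hist1h1b (−0.52) and Hist1h4i (−0.36). The intervals, unlike the calls, are not adjusted over all genes.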
